A study of Mus musculus with 3 samples.

Results

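The Sonic hedgehog pathway was followed in mouse back skin through 7 genes: the ligand gene *Shh*, the receptor gene *Ptch1*, the transducer gene *Smo*, the transcription factor genes *Gli1*, *Gli2* and *Gli3*, and *Hhip*, which encodes a ligand-binding protein of the cell surface. The genes were taken by name, and all 7 were found among the 32285 genes of the count matrices. Each of the 3 libraries was made from dorsal skin pooled from 7 to 8 female C3H/HeN mice aged 25 weeks. Neg was the vehicle control from unaffected mice, AA was the alopecia areata model, and AA+Ab was the same model given an antibody that neutralizes CXCL12. In the model, hair loss follows the injection of cultured lymph node cells from affected donor mice into the skin. All skin cells passed through the same digestion and density gradient, and the protocols name no sort. The dose and schedule of the antibody are not given in the sources used here.

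In the hedgehog pathway the secreted ligand binds PTCH1, which otherwise holds SMO inactive, and free SMO lets the GLI factors turn on target genes. *Gli1* and *Ptch1* are themselves targets, so their transcripts serve as a readout of the response, and HHIP competes with PTCH1 for the ligand. In the growing hair follicle, *Shh* is made by matrix keratinocytes at the base of the follicle, and the response is known in neighbouring keratinocytes and in the dermal papilla, the mesenchymal cell group that the matrix surrounds.

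Of the deposited barcodes, 6582 cells of Neg, 10433 of AA and 9832 of AA+Ab had at most 10% mitochondrial UMIs (unique molecular identifiers, which count captured transcripts) and at least 200 genes. They held 119193310, 135609481 and 139663314 UMIs, with medians of 13694.5, 11177 and 11371 UMIs per cell. The libraries shared 17 to 28 barcodes per pair. Levels are given as CPM, the UMIs of a gene per 1000000 UMIs of the named cells, with exact Poisson 95% intervals, and ratios carry exact conditional 95% intervals. Both cover counting error only. Each group was 1 library, so no test between groups could be made and no difference between mice could be separated from a difference between groups.

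Cells were grouped into clusters without using the 7 genes or 41 other hedgehog pathway genes. The cluster called hair matrix-like passed 8 of 9 matrix markers (such as *Msx2*, *Lef1* and *Hoxc13*) and 5 of 5 cycling markers, and histone and mitotic genes led it. Medulla-like and Krt35-led cells, of the hair shaft, also passed 8 and 7 of the matrix markers. Another cluster of the follicle base passed no marker list and is named by 2 of its leading genes, *Lgr5* and *Fgf5*, as the Lgr5-led cluster. Inner root sheath-like cells passed 5 of 7 markers, medulla-like cells 4 of 4, fibroblast-like cells 7 of 7, and dermal papilla-like cells 5 of 9. Hair matrix-like cells were 9.53% of the cells in Neg, 5.66% in AA and 8.70% in AA+Ab. They were not uniform at the finer clustering described below. Over the 3 libraries, 1349 of them fell in a cluster that passed only 3 of the 9 matrix markers, without *Lef1* or *Hoxc13*. A further 679 fell in a cluster that passed 8.

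The 7 genes lie on 6 chromosomes of the mouse genome (GRCm38, GENCODE M21), and all are protein-coding. *Shh* is at chr5:28456815-28467256 on the minus strand, *Smo* at chr6:29735503-29761365 on the plus strand and *Ptch1* at chr13:63508328-63573598 on the minus strand. *Gli1* is at chr10:127329882-127341974, *Gli2* at chr1:118834132-119053619 and *Hhip* at chr8:79965851-80058006, each on the minus strand, and *Gli3* is at chr13:15463235-15730026 on the plus strand. No start-site window was available for *Shh* or *Gli1*. The windows of *Ptch1*, a readout of the response, and of *Hhip*, described below in the dermal papilla, are printed here. Both run from 250 bases before to 50 bases after the RefSeq start on the minus strand (GRCm38.p6), at chr13:63565686-63565985 and chr8:80057959-80058258, with the 6-letter core CCACCC of the GLI binding motif in capitals.
Ptch1: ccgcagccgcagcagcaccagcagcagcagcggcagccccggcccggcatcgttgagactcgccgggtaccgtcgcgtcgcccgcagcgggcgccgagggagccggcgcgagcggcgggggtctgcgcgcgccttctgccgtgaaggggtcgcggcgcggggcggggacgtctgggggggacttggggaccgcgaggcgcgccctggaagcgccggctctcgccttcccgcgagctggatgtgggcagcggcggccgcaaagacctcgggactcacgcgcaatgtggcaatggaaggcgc
Hhip: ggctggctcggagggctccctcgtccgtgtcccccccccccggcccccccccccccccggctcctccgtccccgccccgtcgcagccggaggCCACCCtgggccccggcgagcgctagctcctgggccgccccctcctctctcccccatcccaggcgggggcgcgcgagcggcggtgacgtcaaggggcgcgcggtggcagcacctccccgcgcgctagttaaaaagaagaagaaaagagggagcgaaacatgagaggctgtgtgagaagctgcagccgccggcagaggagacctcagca
The core, read on both strands, occurred at 1 place in the *Hhip* window and not in that of *Ptch1*, and it was present in 31.5% of 32851 promoter windows of this length. The full 9-letter motif GACCACCCA, which contains the core, was in 83 of those windows, or 0.253%, and in neither of the printed ones. The *Ptch1* window belongs to a RefSeq start inside the GENCODE gene, which has other starts.

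The ligand *Shh* came from few cells. In Neg, 185 of 6582 cells had at least 1 *Shh* UMI (2.81%, exact binomial interval 2.42 to 3.24), in AA 231 of 10433 (2.21%, 1.94 to 2.51) and in AA+Ab 309 of 9832 (3.14%, 2.81 to 3.51). Cells with 5 or more *Shh* UMIs numbered 54, 57 and 96, and they held 75.8%, 71.8% and 79.3% of all *Shh* UMIs of their library. The 10 highest cells alone held 27.9% in Neg, 31.0% in AA and 20.4% in AA+Ab, and the highest single cells had 53, 100 and 40 *Shh* UMIs. Of the cells with 5 or more UMIs, 8, 4 and 11 were marked as likely doublets. A few cells set each library's *Shh* level, and the counting intervals do not cover how many such cells were caught.

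Most of these cells lay at the follicle base. The hair matrix-like and Lgr5-led clusters together held 43 of the 54 high cells in Neg, 56 of 57 in AA and 84 of 96 in AA+Ab. The same clusters held 78.0%, 89.5% and 85.1% of all *Shh* UMIs. Inner root sheath-like cells, whose layer moulds the growing shaft, held a further 7, 1 and 6 high cells. *Shh* was at 23.7 CPM in hair matrix-like cells of Neg (21.6 to 25.9), 38.3 in AA (35.4 to 41.4) and 35.5 in AA+Ab (33.2 to 37.9). In the Lgr5-led cluster it was at 22.7, 33.5 and 52.5 CPM, and in inner root sheath-like cells at 12.2, 11.9 and 19.8 CPM. Basal and suprabasal epidermis-like cells together were at 1.08, 0.40 and 0.79 CPM.

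T cells, which should not make *Shh*, gave the background. *Shh* was listed at 0 UMIs in the 113 T cell-like cells of Neg, which allows up to 3.69 CPM, at 2 UMIs in 392 cells of AA, and at 11 UMIs in 239 cells of AA+Ab, which is 8.70 CPM (4.34 to 15.6). The share of cells with a *Shh* UMI was 0%, 0.51% and 1.67% in T cell-like cells, at a median depth of 5401, 3850 and 4109 UMIs, against 9.89%, 15.1% and 12.6% in hair matrix-like cells at 30889, 27183 and 28949 UMIs. Thinned to 1000 UMIs per cell, the shares were 0%, 0.26% and 0.87% against 1.28%, 3.05% and 2.69%. In AA+Ab the immune clusters together had 24 *Shh* UMIs in 12 of 679 cells, against 1 UMI in Neg and 2 in AA, or 5.96 CPM against 0.35 and 0.56, and 2 of those cells had 5 or more. One melanocyte-like value also stood out, with 34 *Shh* UMIs in 4 of 337 cells of Neg, or 18.9 CPM (13.1 to 26.4), an interval that overlapped that of hair matrix-like cells.

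**Figure D1:**
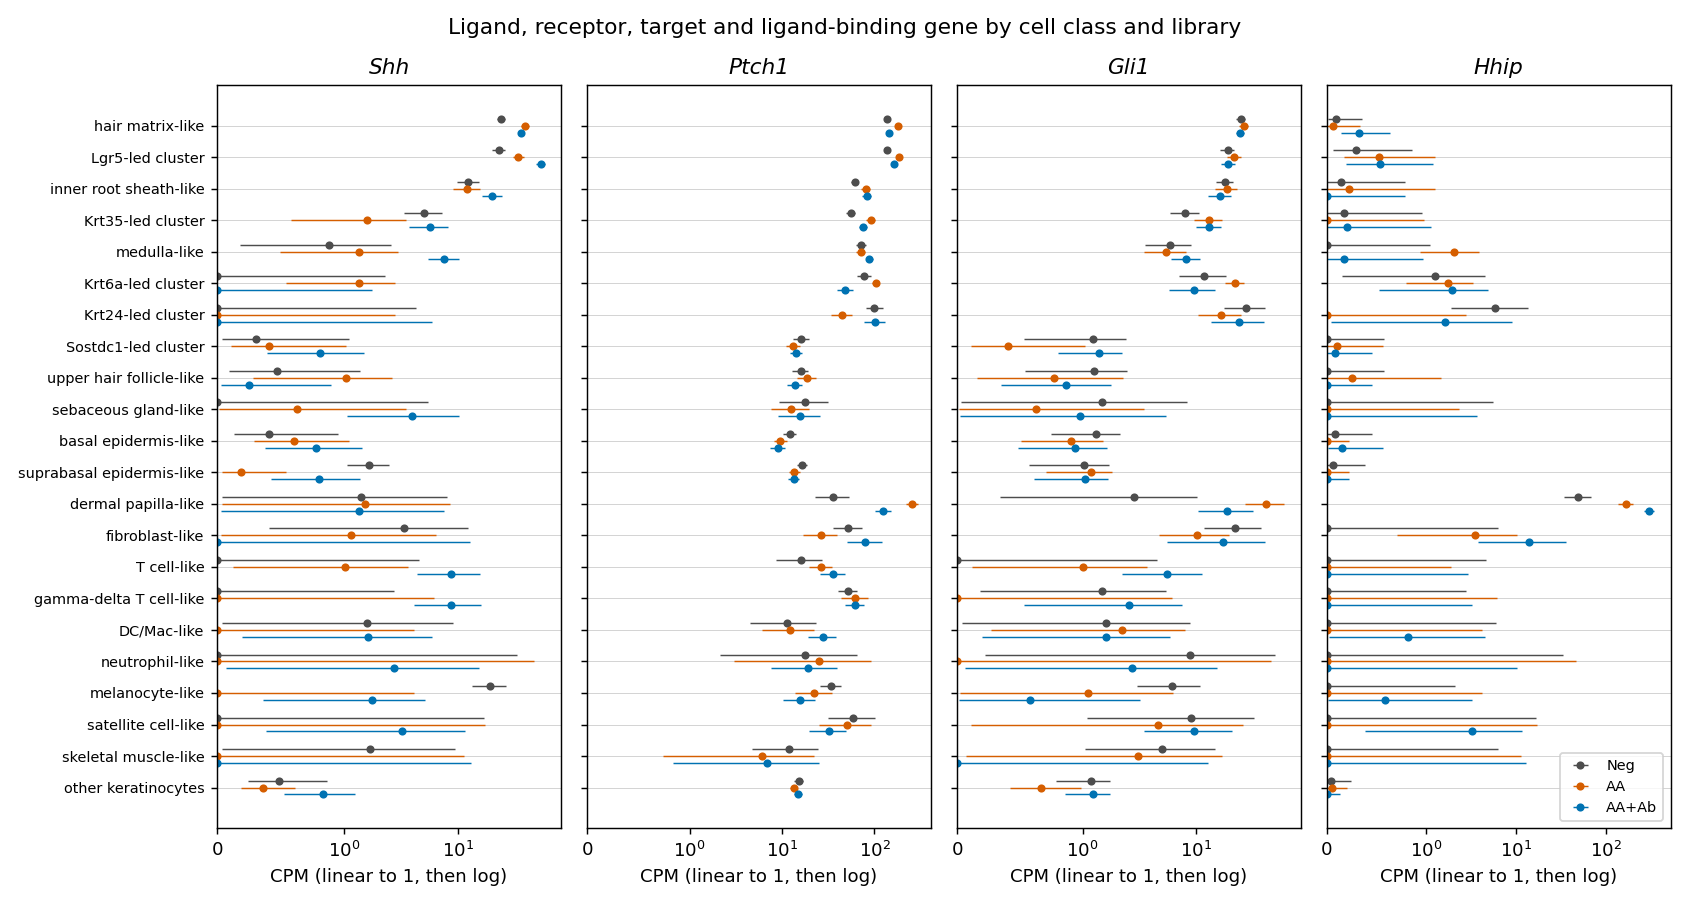
CPM of *Shh*, *Ptch1*, *Gli1* and *Hhip* (horizontal axes, linear to 1 and logarithmic above) in 22 cell classes and clusters, for Neg (grey), AA (orange) and AA+Ab (blue), with exact Poisson 95% intervals. *Shh* is highest in hair matrix-like and Lgr5-led cells, *Ptch1* is high there and in dermal papilla-like cells of AA at 255 CPM, and *Hhip* stands out in dermal papilla-like cells.

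The receptor and target genes covered more classes than the ligand. *Ptch1* was at 138 CPM in hair matrix-like cells of Neg (133 to 143), 180 in AA (173 to 186) and 144 in AA+Ab (139 to 148), and 77.0%, 81.9% and 78.7% of these cells had a UMI, against 10.6%, 9.95% and 10.5% of T cell-like cells at their lower depth. In the Lgr5-led cluster it was at 137, 184 and 164 CPM. *Ptch1* was also at 61.1 to 82.0 CPM in inner root sheath-like cells and at 70.7 to 88.3 CPM in medulla-like cells. Basal epidermis-like cells were at 9.05 to 12.2 CPM and suprabasal ones at 13.3 to 16.4 CPM. *Gli1* was likewise higher in hair matrix-like cells, at 24.9, 26.5 and 24.3 CPM, than in basal epidermis-like cells, at 0.91 to 1.31 CPM.

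Within each library, hair matrix-like cells were set against the epidermis-like cells, basal and suprabasal together. *Shh* was 21.9-fold higher in Neg (15.02 to 33.0), 96.2-fold in AA (55.8 to 182) and 44.8-fold in AA+Ab (29.7 to 71.1). *Ptch1* was 9.50-fold higher in Neg (8.54 to 10.6), 15.5-fold in AA (13.9 to 17.3) and 12.6-fold in AA+Ab (11.2 to 14.1). *Gli1* was 21.5-fold, 25.4-fold and 24.3-fold higher. *Gli2*, the main activator of the response, was 16.5-fold, 16.4-fold and 15.4-fold higher, and *Gli3*, which acts largely as a repressor, 9.87-fold, 14.6-fold and 13.4-fold. *Smo* differed least of these 6 genes, at 2.03-fold, 2.43-fold and 2.34-fold.

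*Gli3* had a maximum of its own. In medulla-like cells, which express *Krt75* and *Tchh* and belong to the core of the hair shaft, it was at 1155 CPM in Neg (1119 to 1191), 1427 in AA (1392 to 1463) and 1118 in AA+Ab (1091 to 1146). These were 2.29%, 2.16% and 3.08% of the cells, and they held 25.4%, 33.1% and 35.0% of all *Gli3* UMIs. Hair matrix-like cells were at 236, 267 and 208 CPM of *Gli3*. *Gli2* was at only 35.9 to 38.7 CPM in the same medulla-like cells, and there *Gli1* was at 5.44 to 8.16 CPM.

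A pair of smaller keratinocyte clusters away from the matrix also carried *Ptch1* and *Gli1* with little or no *Shh*. In the Krt24-led cluster, *Shh* was listed at 0 in all 3 libraries, while *Ptch1* was at 99.9, 44.4 and 101 CPM and *Gli2* at 178, 91.9 and 150 CPM. In the Krt6a-led cluster, which passed 5 of 7 markers of the outer bulge and outer root sheath, *Ptch1* was at 77.3, 103 and 47.7 CPM and *Gli1* at 11.8, 22.1 and 9.55 CPM. The order of the libraries differed between these clusters, with AA lowest for *Ptch1* in the first and highest in the second. AA had 387 cells in the Krt6a-led cluster, against 115 in Neg and 175 in AA+Ab.

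At a finer clustering, *Shh* and *Ptch1* were highest in different clusters of the follicle base. Of the finer clusters, 4 are described, chosen after their values were seen and named by leading genes. The Wif1 and Prkd1 cluster was taken almost wholly from hair matrix-like cells (99.6%), as was the Sox5 and Foxe1 cluster (93.7%), and the Lgr5 and Fhod3 cluster came from the Lgr5-led cells alone. The Cdh6 and Wif1 cluster came mostly from Lgr5-led cells (81.0%) and passed 6 of 9 matrix markers. The Lgr5-led cells were thus mixed, with 944 in the Cdh6 and Wif1 cluster and 449 in the Lgr5 and Fhod3 cluster. *Wif1* encodes a secreted inhibitor of WNT ligands, and *Lgr5* a receptor known from stem and progenitor cells of the follicle.

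*Shh* was at 69.4 CPM in the Wif1 and Prkd1 cluster of Neg, 103 in AA and 102 in AA+Ab. It was at 30.0, 42.7 and 64.5 CPM in the Cdh6 and Wif1 cluster. The Sox5 and Foxe1 cluster had 3.15, 0.93 and 2.19 CPM, and the Lgr5 and Fhod3 cluster had 2 *Shh* UMIs in Neg and none in AA or AA+Ab. *Ptch1* ran the other way, from 78.8, 102 and 84.5 CPM in the Wif1 and Prkd1 cluster to 165, 227 and 175 CPM in the Sox5 and Foxe1 cluster and 232, 322 and 315 CPM in the Lgr5 and Fhod3 cluster. The Lgr5 and Fhod3 cluster thus had 2.94-fold more *Ptch1* than the Wif1 and Prkd1 cluster in Neg (2.62 to 3.30), 3.17-fold in AA (2.86 to 3.51) and 3.73-fold in AA+Ab (3.38 to 4.12). The Wif1 and Prkd1 cluster still lay above epidermis-like cells, basal and suprabasal together, whose *Ptch1* was at 14.5, 11.6 and 11.4 CPM.

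*Gli1* and *Gli2* shared the direction of *Ptch1*. *Gli1* was 1.77-fold higher in the Lgr5 and Fhod3 cluster than in the Wif1 and Prkd1 cluster of Neg (1.32 to 2.37), 1.54-fold in AA (1.15 to 2.05) and 1.49-fold in AA+Ab (1.09 to 2.01). *Gli2* was 2.62-fold, 2.32-fold and 2.25-fold higher, and *Smo* 1.98-fold, 1.60-fold and 1.63-fold. *Gli3* went the opposite way, at 0.61, 0.71 and 0.56 times the level of the Wif1 and Prkd1 cluster. The median depth of the Wif1 and Prkd1 cells was 31135, 27024 and 29088 UMIs and that of the Lgr5 and Fhod3 cells 22624, 18119 and 17730.5.

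**Figure D2:**
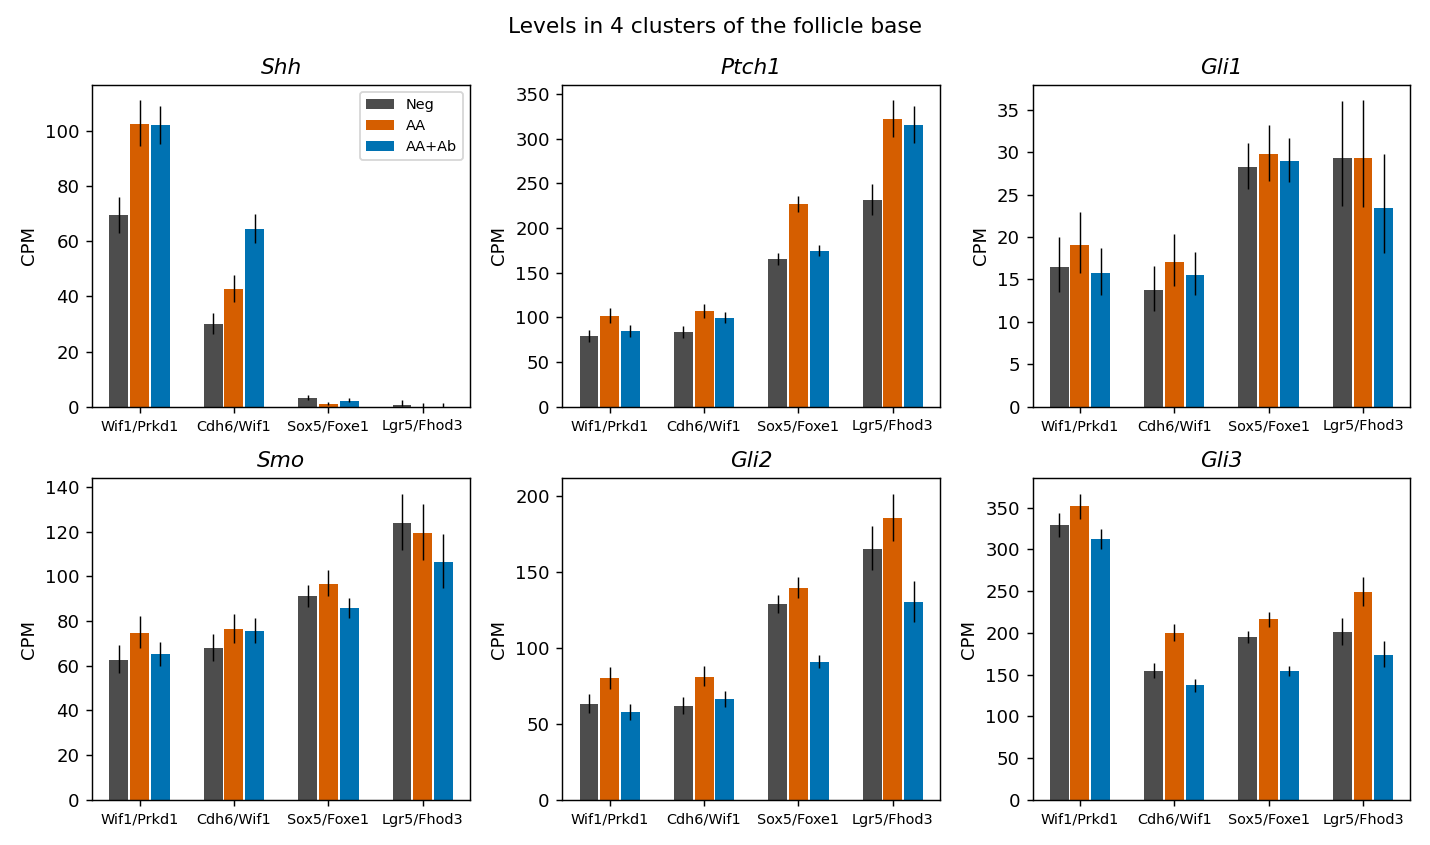
CPM (vertical axes) of 6 genes in 4 finer clusters of the follicle base, with bars for Neg (grey), AA (orange) and AA+Ab (blue) and exact Poisson 95% intervals. *Shh* is high in the 2 clusters named for *Wif1* and at most 3.15 CPM in the others, while *Ptch1*, *Gli1*, *Gli2* and *Smo* are higher in those others and *Gli3* is highest in the Wif1 and Prkd1 cluster.

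Other pathway genes went both ways between these clusters. Of the 41 genes listed, 34 in Neg, 33 in AA and 34 in AA+Ab had 20 UMIs over the Lgr5 and Fhod3 and the Wif1 and Prkd1 clusters. In Neg, 2 were higher and 2 lower by at least 2-fold, in AA 4 and 2, and in AA+Ab 3 and 3, against 18.4%, 17.1% and 18.4% of all genes past the same fold in either direction. These clusters were made from the same cells, so the counts are a description, and a share near that of all genes is no result about the list. The median log2 ratio over the list was 0.026, -0.057 and 0.029, beside 0.035, 0.044 and 0.063 over all genes. *Foxe1*, a forkhead gene induced by hedgehog signals, was at 119, 126 and 134 CPM in the Lgr5 and Fhod3 cluster against 13.8, 7.93 and 8.42 CPM. *Hhat*, whose enzyme adds palmitate to the ligand, was 3.40-fold, 2.34-fold and 2.30-fold higher there. *Scube1* and *Scube2*, whose secreted products help release the ligand, were lower. *Scube1*, which its count of 0 kept out of the number for AA, had 2, 0 and 3 UMIs in the Lgr5 and Fhod3 cluster and 320, 366 and 397 in the Wif1 and Prkd1 cluster. *Scube2* was at 1.93, 2.64 and 4.196 CPM against 23.8, 17.9 and 16.7 CPM.

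Single cells showed a related contrast, with an exception. Hair matrix-like cells with 5 or more *Shh* UMIs (26 in Neg, 35 in AA and 46 in AA+Ab) were set against those with none (565, 501 and 747). *Scube1* was 26.2-fold, 31.9-fold and 40.9-fold higher in the first. *Disp1*, which exports the lipid-bearing ligand, was 1.86-fold, 5.47-fold and 2.54-fold higher. *Gli1* was 1.38-fold (0.97 to 1.91), 1.83-fold (1.32 to 2.49) and 1.18-fold (0.84 to 1.62). Its interval excluded equality in AA. With the Lgr5-led cells added, a comparison chosen after the data were seen, the ratios were 1.34 (0.98 to 1.80), 1.55 (1.15 to 2.04) and 1.39 (1.08 to 1.77). Whether the libraries differ in this was not tested.

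*Ptch1* was not higher in the high cells of any library. It was at 108 CPM in the high cells of Neg against 143 in those with none, a ratio of 0.76 (0.63 to 0.91), at 0.98 in AA (0.84 to 1.14) and at 0.74 in AA+Ab (0.63 to 0.87). *Gli2* was at 0.52, 0.54 and 0.64 times and *Gli3* at 0.48, 0.38 and 0.43 times the level in cells without *Shh*. *Boc*, a coreceptor gene, was at 0.31, 0.20 and 0.65 times and *Foxe1* at 0.17, 0.10 and 0.09 times. *Mki67*, a proliferation marker chosen after its values were seen, was at 0.97, 0.94 and 0.94 times, with intervals that included equality, and with the Lgr5-led cells added at 1.00, 0.89 and 0.83 times. Median depths were 34947.5, 27476 and 32180.5 UMIs in the high cells and 30435, 27178 and 28721 in the others. Hair matrix-like cells mix the Wif1 and Prkd1 with the Sox5 and Foxe1 cluster, whose *Ptch1* was at 78.8 and 165 CPM in Neg. High cells were not set against cells of their own finer cluster, so these ratios may repeat the contrast of the clusters.

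**Figure D3:**
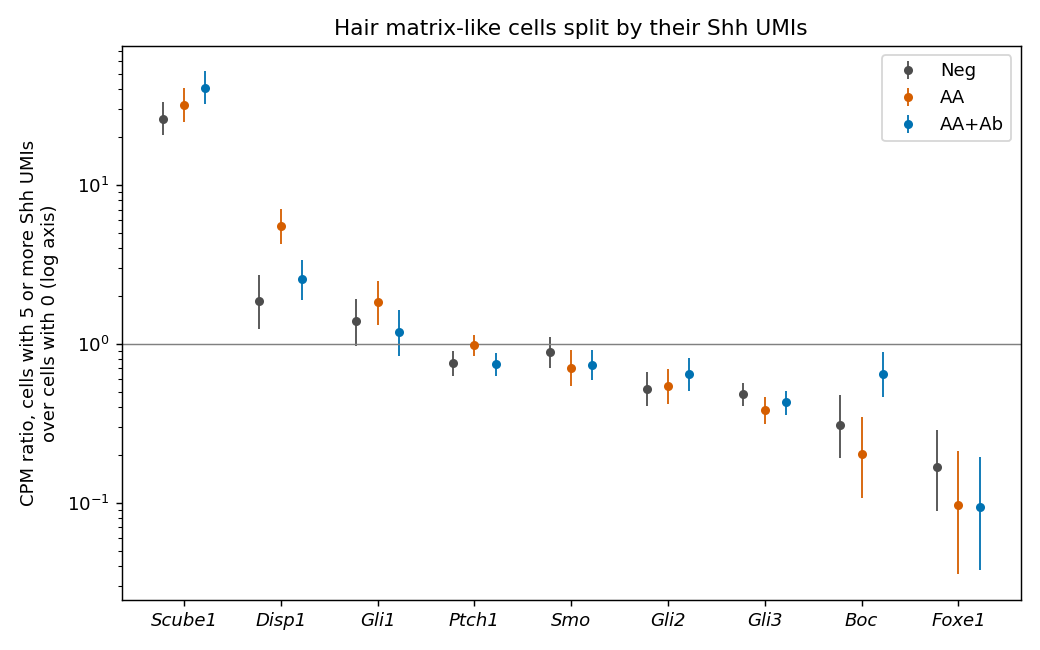
Ratio of CPM (vertical axis, logarithmic) between hair matrix-like cells with 5 or more *Shh* UMIs and those with none, for 9 pathway genes in Neg (grey), AA (orange) and AA+Ab (blue), with exact conditional 95% intervals. *Scube1* and *Disp1* lie above equality in every library, *Ptch1* lies at 0.74 to 0.98, and *Gli2*, *Gli3*, *Boc* and *Foxe1* lie below.

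Over 80 points, each 1 cluster in 1 library with at least 20 cells, *Gnasas1*, *Krt28*, *Gm13490*, *Slc39a10* and *Prmt1* were most like *Shh* among 18310 genes, by Pearson's r of log2(CPM + 1). Their r ran from 0.78 to 0.76, followed by *Susd4*, *Fgf5*, *Emg1*, *Exo1* and *Gm12446* down to 0.75. *Krt28* is a keratin of the inner root sheath and *Fgf5* a growth factor of the late growth phase. The genes most like *Ptch1* were *Rasl11b* (r = 0.87), *Ror2* (0.86), *Gli1* (0.83), *Zfp286* (0.83) and *Tmtc1* (0.82), and those most like *Gli1* were *Ptch1*, *Tmtc1*, *Ror2*, *Myh10* and *Rasl11b*. *Shh* itself had r of 0.57 with *Ptch1* and 0.56 with *Gli1*. The points share libraries and depth, and r is a description.

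Over all cells, *Shh* was at 7.71 CPM in Neg (7.22 to 8.23), 7.81 in AA (7.35 to 8.29) and 12.3 in AA+Ab (11.8 to 12.9). The ratio was 1.01 for AA over Neg (0.93 to 1.11), 1.60 for AA+Ab over Neg (1.48 to 1.73) and 1.58 for AA+Ab over AA (1.46 to 1.71). *Ptch1* was at 55.4, 56.9 and 58.6 CPM, *Smo* at 58.5, 57.3 and 54.97, and *Gli1* at 8.82, 7.68 and 8.35. *Gli3* was at 130, 140 and 132 CPM. *Gli2* was at 43.5, 41.5 and 33.9 CPM, and AA+Ab had 0.78 times the level of Neg (0.75 to 0.81) and 0.82 times that of AA (0.78 to 0.85). Of the 7 genes, *Hhip* alone was past 2-fold in AA over Neg and in AA+Ab over Neg, and none was in AA+Ab over AA. Among all genes with at least 20 UMIs over both libraries, 6.79%, 5.56% and 6.61% were past 2-fold in these comparisons. The 3 comparisons share libraries. With every cell thinned to 1000 UMIs, the log2 ratio of *Gli2* for AA+Ab over AA was 0.049 in place of -0.29, and that of *Shh* for AA over Neg was -0.31 in place of 0.02.

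The near-equal *Shh* of Neg and AA over all cells went with unlike levels in the follicle base. Few cells set these levels: 26 hair matrix-like cells in Neg, 35 in AA and 46 in AA+Ab had 5 or more *Shh* UMIs. The intervals below do not cover how many such cells were caught. Hair matrix-like cells of AA had 1.62 times the *Shh* of Neg (1.43 to 1.82), and those of AA+Ab 1.499 times (1.34 to 1.68), with AA+Ab at 0.93 times AA (0.84 to 1.03). That last log2 ratio of -0.11 turned to between 0.19 and 0.25 when the matrix cells were taken at other resolutions or by markers without clusters. In the Lgr5-led cluster the ratios were 1.48, 2.31 and 1.57. The share of hair matrix-like cells was lowest in AA, and with the cell classes of AA and AA+Ab weighted to their shares in Neg, the log2 ratio of *Shh* over all cells for AA over Neg was 0.54 in place of 0.02. *Ptch1* in hair matrix-like cells was 1.31 times as high in AA as in Neg (1.24 to 1.37) and 1.04 times in AA+Ab (0.99 to 1.10). *Gli1* was 1.06 and 0.98 times, with intervals that included equality.

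The CPM of *Gli2* and *Gli3* was lowest in AA+Ab in hair matrix-like cells and the Lgr5-led cluster. In hair matrix-like cells *Gli2* was at 110 CPM in Neg, 119 in AA and 79.9 in AA+Ab, so that AA+Ab had 0.67 times the level of AA (0.63 to 0.72). *Gli3* in AA+Ab was at 0.78 times AA (0.75 to 0.81). *Gli2* was also lower in AA+Ab than in AA in the Lgr5-led cluster (0.73 times) and the Krt6a-led cluster (0.60 times), and *Gli3* was at 0.69 and 0.59 times. In the finer Cdh6 and Wif1 cluster *Gli2* was at 61.6, 81.0 and 66.5 CPM, so AA+Ab was not the lowest there. No member was past 2-fold in hair matrix-like cells in any of the 3 comparisons, where 4.37%, 5.37% and 4.94% of all genes were, in the order AA over Neg, AA+Ab over Neg and AA+Ab over AA.

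**Figure D4:**
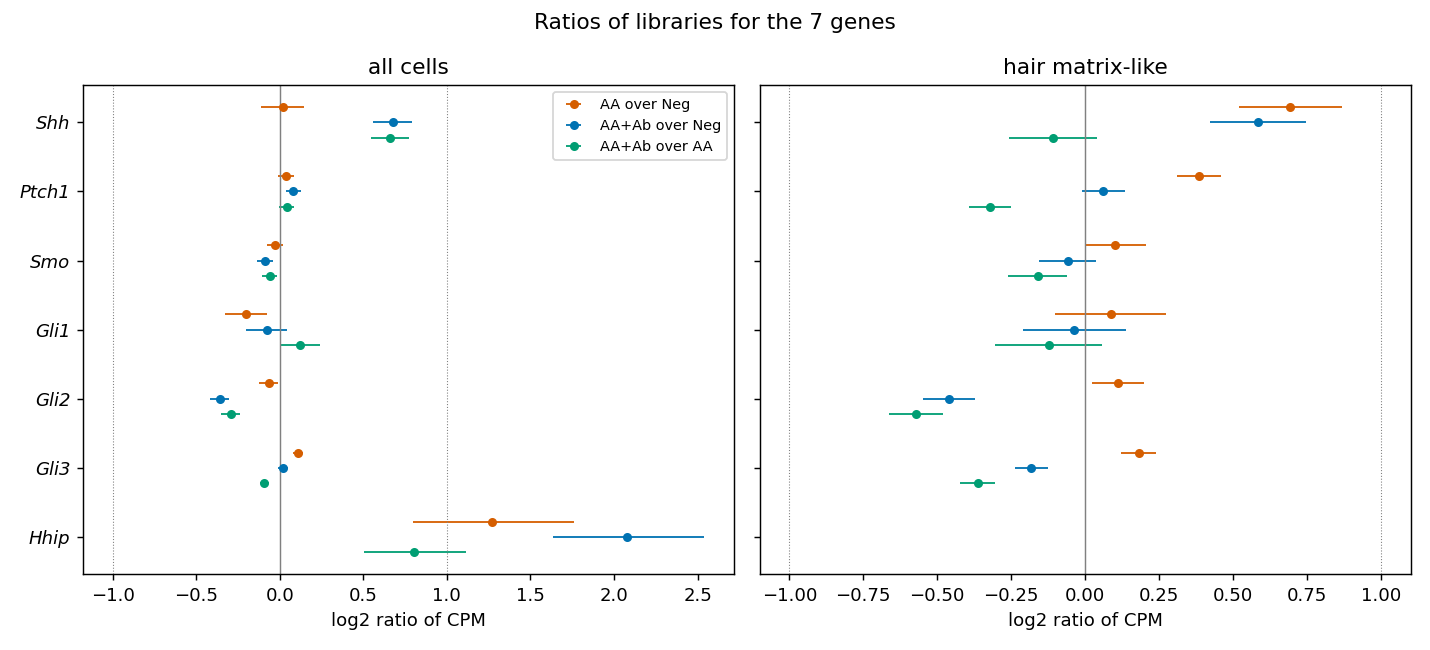
log2 ratio of CPM (horizontal axes) for each pair of libraries, over all cells on the left and in hair matrix-like cells on the right, with exact conditional 95% intervals and dotted lines at 2-fold. The axes have different ranges, and *Hhip*, with under 20 UMIs in hair matrix-like cells, is left out on the right. Over all cells *Shh* sits near 0 for AA over Neg, while in hair matrix-like cells it sits at 0.69.

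Most *Hhip* UMIs came from the dermal papilla. Dermal papilla-like cells numbered 49 in Neg, 120 in AA and 87 in AA+Ab, and held 34 of the 51 *Hhip* UMIs of Neg, 108 of 140 in AA and 220 of 252 in AA+Ab. This was 66.7%, 77.1% and 87.3% of the gene's UMIs. The level over all cells was 0.43 CPM in Neg, 1.03 in AA and 1.80 in AA+Ab, or 2.41-fold (1.74 to 3.39) and 4.22-fold (3.11 to 5.82) above Neg. Fibroblast-like cells had 0, 3 and 4 *Hhip* UMIs.

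The dermal papilla-like cluster was not alike in the 3 libraries. At the finer clustering it split into cells with dermal papilla markers (19, 102 and 67 cells) and cells of an endothelial cluster (30, 17 and 20 cells, with 1 cell of AA in neither), so most of the Neg cells were of the second kind. *Corin*, a protease gene of the papilla, had all its UMIs of the cluster in the first kind, and *Cdh5*, an endothelial cadherin gene, all of its own outside it. All *Hhip* UMIs of the cluster also fell in the first kind. Their median depth was 5002, 3990 and 6281 UMIs. There *Hhip* was at 280 CPM in Neg (194 to 391), 187 in AA (154 to 226) and 426 in AA+Ab (371 to 486), while in the whole cluster it was at 48.3, 166 and 298 CPM. The order of Neg and AA thus depended on which cells were counted, and the Neg values rest on 7 cells with a *Hhip* UMI. *Corin* had the same order as *Hhip* in the finer cluster, at 848, 376 and 1021 CPM. *Notum*, another papilla marker, did not, at 140, 182 and 116 CPM, highest in AA and lowest in AA+Ab.

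The CPM of *Ptch1* in the dermal papilla was highest in AA under both clusterings, but the share of cells with a UMI was not highest in AA in the finer cluster. In the whole cluster it was at 35.5, 255 and 125 CPM, or 7.16-fold higher in AA than in Neg (4.69 to 11.4) and 0.49 times as high in AA+Ab as in AA (0.37 to 0.63). In the finer cluster it was at 115, 288 and 172 CPM, which is 2.50-fold (1.45 to 4.66) for AA over Neg and 0.60 times (0.46 to 0.78) for AA+Ab over AA. In AA, 1 cell held 56 of the 166 *Ptch1* UMIs. *Gli1* had 2, 27 and 14 UMIs, and in the finer cluster AA over Neg was 2.84 with an interval of 0.71 to 24.7. In the whole cluster 6 of 6 members with 20 UMIs were past 2-fold for AA over Neg, 3 of 5 for AA+Ab over Neg and 2 of 6 for AA+Ab over AA, against 25.9%, 21.2% and 13.7% of all genes. The count for AA over Neg rested on the whole cluster, in which 30 of the 49 cells of Neg fell in an endothelial cluster at the finer clustering. In the finer cluster the ratio of AA over Neg was 1.33 for *Smo* (0.66 to 3.06) and 1.02 for *Gli2* (0.62 to 1.77). For *Gli3* it was 0.57 (0.42 to 0.79) and for *Hhip* 0.67 (0.45 to 1.01). *Ptch1* and *Gli1* stayed past 2-fold there, from 14 and 2 UMIs in Neg. The share of all genes past 2-fold was not taken for the finer cluster, so this is no result about the members.

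Fibroblast-like cells were fewer still, with 47, 114 and 31 cells. Their *Ptch1* was at 52.3, 26.4 and 79.4 CPM, from 31, 23 and 23 UMIs, and their *Gli1* at 21.9, 10.3 and 17.3 CPM, from 13, 9 and 5 UMIs. Dermal papilla-like cells of AA had 9.65 times the *Ptch1* of fibroblast-like cells (6.22 to 15.7). In Neg the ratio was 0.68 (0.38 to 1.19) and in AA+Ab 1.57 (0.98 to 2.59), both with intervals that included equality. With marked doublets removed, the log2 ratio was 2.74 in AA+Ab in place of 0.65. In Neg the log2 ratio of -0.56 turned to 0.33 with marked doublets removed, 0.52 with cells thinned to 1000 UMIs and 1.14 at resolution 1.5, so its direction depended on these choices.

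**Figure D5:**
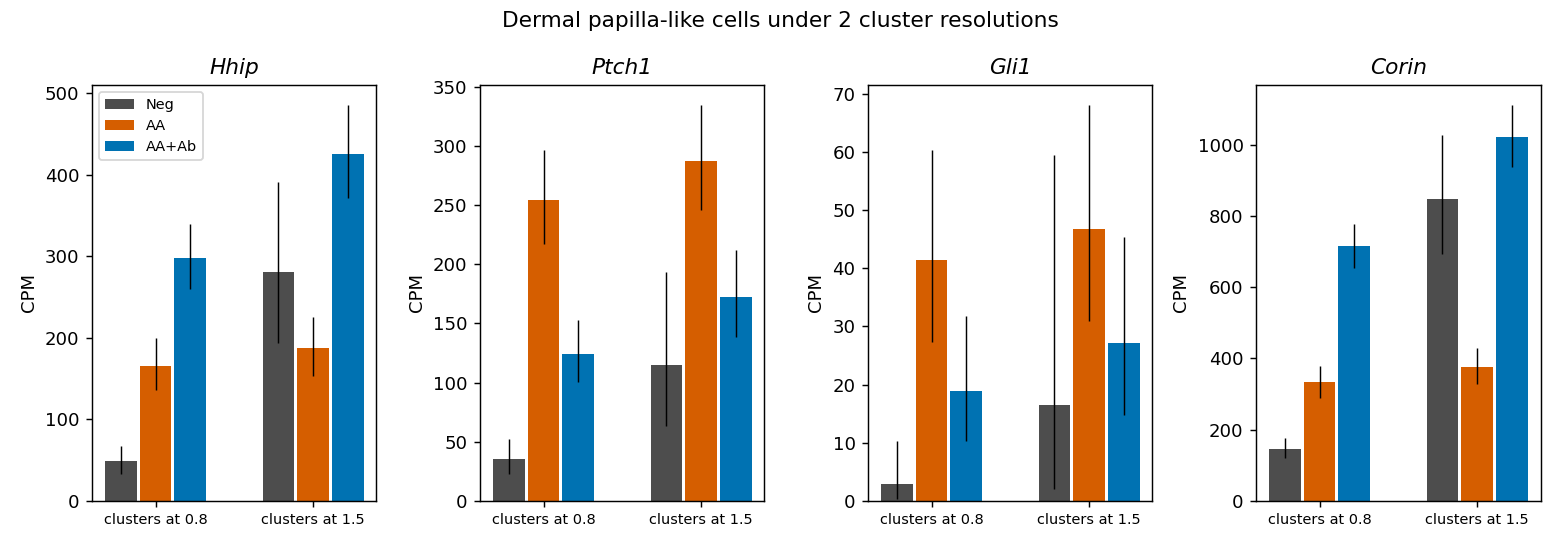
CPM (vertical axes) of *Hhip*, *Ptch1*, *Gli1* and the papilla marker *Corin* in dermal papilla-like cells of Neg (grey), AA (orange) and AA+Ab (blue), with exact Poisson 95% intervals, for the cluster at resolution 0.8 and the finer one at 1.5. *Ptch1* is highest in AA in both, where 1 cell holds 56 of its 166 UMIs, while *Hhip* in Neg moves from the lowest of the 3 libraries to above AA.

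The other ligands were nearly absent. *Ihh* had 19, 10 and 8 UMIs over all cells and *Dhh* 7, 10 and 10. *Ihh* was past 2-fold lower in AA and AA+Ab than in Neg, at 0.46 (0.19 to 1.05) and 0.36 times (0.14 to 0.86). Of the 38 listed genes with 20 UMIs, it was the one past 2-fold in both comparisons with Neg. *Foxd1*, with 24 UMIs in AA and 12 in AA+Ab, was the one between AA+Ab and AA, at 0.49 times (0.22 to 1.01). Over all genes, 6.79%, 5.56% and 6.61% were past 2-fold for AA over Neg, AA+Ab over Neg and AA+Ab over AA, so these counts are no result about the list. The median log2 ratio of the 38 was -0.06, -0.06 and 0.04 for AA over Neg, AA+Ab over Neg and AA+Ab over AA, against -0.06, -0.06 and 0.01 over all genes.

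Among the coreceptors, *Boc* was at 36.0, 39.0 and 32.7 CPM and *Gas1* at 28.4, 29.1 and 37.1 CPM. *Scube2*, *Disp1* and *Scube1*, for release of the ligand, were at 17.8, 14.7 and 19.2 CPM, at 10.9, 9.22 and 9.49 CPM and at 7.51, 5.40 and 7.40 CPM. The cyclin gene *Ccnd2* was at 329, 295 and 400 CPM. *Arl13b*, a gene of the primary cilium through which the signal passes, was at 87.2, 155 and 115 CPM, with the highest ratio of AA over Neg among the 38 genes at 1.78 (1.74 to 1.82), and it was singled out after its values were seen. In hair matrix-like cells that ratio was 1.24 (1.13 to 1.35). AA+Ab over AA was 1.10 there (1.01 to 1.18), against 0.74 over all cells. The remaining genes with the most UMIs of their role, *Csnk1a1*, *Gnas* and *Gsk3b* of the cytoplasm and *Ccnd1* and *Bcl2* among the targets, stayed within 2-fold in all 3 comparisons.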

How the data were processed

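Pooled dorsal skin was profiled in 3 libraries with the 10x Genomics 3′ v3.1 kit. Per the labels, the authors made the matrices with Cell Ranger 7.2.0 on mm10. The deposited values are raw UMI counts per gene and cell. Other upstream settings are not given in the sources used here. Cells with at most 10% mitochondrial UMIs and at least 200 genes were kept, as in the study's methods. Counts were summed per library and class, which gives CPM with a counting precision set by the UMIs named in the text. Seurat 5.3.0 clustered all libraries together (2000 variable genes without 48 pathway genes, 30 components, resolution 0.8, and 0.4 and 1.5 as alternatives). A cluster took the name of a marker list when over 50% of its markers, and at least 3, were in 25% of cells and 2-fold over other cells. These limits were set after the clusters were seen. A cluster with more markers of another list among its 10 leading genes stayed unnamed. Doublets were marked by simulated neighbours in scikit-learn 1.9.0 (367, 908 and 826 cells) and kept, though the study removed doublets, except in 1 alternative. Intervals came from scipy 1.17.1 and were tested on simulated counts. The study used mm10, and gene positions come from GENCODE M21 on the same assembly, GRCm38. Sequences come from RefSeq, with windows for 5 of the 7 genes. The genes named are the 7 members, the 3 genes with most UMIs of each pathway role, those past 2-fold, the 10 genes most like *Shh* and 5 each for *Ptch1* and *Gli1*, and markers, and 1 gene that the rule would name is not reported here. The members, lists and comparisons were chosen with earlier results of these data known. Alternatives were another mitochondrial limit or none, doublets removed, another CPM total, thinning to 1000 UMIs, shared barcodes left out, class weighting, other resolutions and markers without clusters.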

Additional observations from a re-analysis of the deposited data

Results flagged for a closer look

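A member whose ratio between the same libraries was past 2-fold upward in 1 cell class and past 2-fold downward in another, with at least 20 UMIs in each library and intervals that excluded equality, was singled out. The difference between the classes was not tested. *Ptch1* for AA over Neg had a log2 ratio of 2.84 in dermal papilla-like cells and -1.17 in the Krt24-led cluster. For AA+Ab over Neg it had 1.81 in dermal papilla-like cells and -1.11 in melanocyte-like cells, and for AA+Ab over AA 1.59 in fibroblast-like cells and -1.11 in the Krt6a-led cluster. Melanocyte-like cells joined a cluster with a median of 655 UMIs per cell and one with 17764.5. The first had 297 cells in Neg and 112 in AA+Ab, the second 40 and 70, so the mix differed between these libraries. *Gli3* for AA over Neg had 1.34 in dermal papilla-like cells and -1.14 in suprabasal epidermis-like cells. The dermal papilla-like values of Neg include 30 of 49 cells that fell in an endothelial cluster at the finer clustering, and the part of these cells in the ratios is seen in the finer values, where *Ptch1* for AA over Neg was 1.32 and *Gli3* was -0.81, so that *Gli3* had the other direction there.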

How the results depend on the processing

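Of 147 alternative values over all cells, 102 lay within the interval of the reported log2 ratio, 40 outside it and 5 had the other direction, which was counted only where the reported interval excluded equality. Within classes these were 103, 28 and 2 of 133, and between classes 81, 21 and 0 of 102. Where the reported interval included equality, a further 11, 7 and 3 values had the other sign, among them *Ptch1* for dermal papilla-like over fibroblast-like cells of Neg and *Shh* for AA+Ab over AA in hair matrix-like cells. Where it excluded equality, the values with the other direction were *Gli1* and *Gli2* for AA over Neg with weighted classes, *Smo* for AA+Ab over Neg and *Gli2* and *Gli3* for AA+Ab over AA with thinning, *Hhip* for AA over Neg in dermal papilla-like cells at resolution 1.5 and *Gli1* there for AA+Ab over Neg with thinning. Thinning left out 290, 86 and 158 cells and most UMIs, and the cause of the other changes was not tested.

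With marked doublets removed, log2 ratios over all cells were 0.15 for *Shh* (AA over Neg), and 0.82 for *Shh* (AA+Ab over Neg). With marked doublets removed, log2 ratios in hair matrix-like cells were 0.78 for *Shh* (AA+Ab over Neg). With marked doublets removed, log2 ratios in dermal papilla-like cells were 1.34 for *Hhip* (AA+Ab over AA). With marked doublets removed, log2 ratios for dermal papilla-like over fibroblast-like cells were 0.33 for *Ptch1* (Neg), and 3.97 for *Ptch1* (AA), and 2.74 for *Ptch1* (AA+Ab). With cells thinned to 1000 UMIs, log2 ratios over all cells were -0.31 for *Shh* and 0.17 for *Ptch1* (AA over Neg), and 0.51 for *Shh*, 0.21 for *Ptch1*, 0.025 for *Smo* and -0.54 for *Gli1* (AA+Ab over Neg), and 0.83 for *Shh*, -0.29 for *Gli1*, 0.049 for *Gli2* and 0.065 for *Gli3* (AA+Ab over AA). With cells thinned to 1000 UMIs, log2 ratios in hair matrix-like cells were 1.29 for *Shh* and 0.13 for *Ptch1* (AA over Neg), and 1.04 for *Shh* and -0.32 for *Gli1* (AA+Ab over Neg), and -0.054 for *Ptch1* and -0.47 for *Gli1* (AA+Ab over AA). With cells thinned to 1000 UMIs, log2 ratios in dermal papilla-like cells were 0.29 for *Gli1* and 1.03 for *Hhip* (AA over Neg), and -0.81 for *Gli1* and 1.69 for *Hhip* (AA+Ab over Neg). With cells thinned to 1000 UMIs, log2 ratios for hair matrix-like over epidermis-like cells were 2.56 for *Shh*, 3.87 for *Ptch1* and 5.69 for *Gli1* (Neg), and 3.79 for *Ptch1* and 4.05 for *Gli1* (AA). With cells thinned to 1000 UMIs, log2 ratios for dermal papilla-like over fibroblast-like cells were 0.52 for *Ptch1* (Neg), and 2.57 for *Ptch1* (AA+Ab). With classes weighted to their shares in Neg, log2 ratios over all cells were 0.54 for *Shh*, 0.37 for *Ptch1*, 0.15 for *Gli1* and 0.14 for *Gli2* (AA over Neg), and 0.15 for *Ptch1* (AA+Ab over Neg), and 0.22 for *Shh*, -0.22 for *Ptch1* and -0.12 for *Gli1* (AA+Ab over AA). With mitochondrial, ribosomal and hemoglobin genes left out of the total, log2 ratios over all cells were 0.092 for *Ptch1* (AA+Ab over AA). With no mitochondrial limit, log2 ratios over all cells were 0.097 for *Ptch1* (AA+Ab over AA). With matrix cells taken by 4 markers, log2 ratios in hair matrix-like cells were 0.49 for *Ptch1* (AA over Neg), and 0.88 for *Shh* and 0.21 for *Ptch1* (AA+Ab over Neg), and 0.25 for *Shh* (AA+Ab over AA). At resolution 0.4, log2 ratios in hair matrix-like cells were 0.82 for *Shh* and 0.14 for *Ptch1* (AA+Ab over Neg), and 0.19 for *Shh* (AA+Ab over AA). At resolution 0.4, log2 ratios for hair matrix-like over epidermis-like cells were 3.80 for *Ptch1* (AA), and 3.48 for *Ptch1* (AA+Ab). At resolution 1.5, log2 ratios in hair matrix-like cells were 0.79 for *Shh* and 0.19 for *Ptch1* (AA+Ab over Neg), and 0.24 for *Shh* and -0.18 for *Ptch1* (AA+Ab over AA). At resolution 1.5, log2 ratios in dermal papilla-like cells were 1.32 for *Ptch1*, 1.51 for *Gli1* and -0.58 for *Hhip* (AA over Neg), and 0.58 for *Ptch1* and 0.60 for *Hhip* (AA+Ab over Neg). At resolution 1.5, log2 ratios for hair matrix-like over epidermis-like cells were 5.26 for *Shh*, 2.40 for *Ptch1* and 3.81 for *Gli1* (Neg), and 3.07 for *Ptch1* and 4.01 for *Gli1* (AA), and 6.58 for *Shh* and 2.999 for *Ptch1* (AA+Ab). At resolution 1.5, log2 ratios for dermal papilla-like over fibroblast-like cells were 1.14 for *Ptch1* and -0.41 for *Gli1* (Neg). With a mitochondrial limit of 5%, log2 ratios in dermal papilla-like cells were 3.08 for *Hhip* (AA over Neg), and 3.89 for *Hhip* (AA+Ab over Neg).

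No paired analysis was possible because each group was 1 library, and for the same reason leaving out a replicate gives no value. Leaving out shared barcodes moved no value outside its interval or to the other direction. Depth limits *Gli1* and *Hhip* in dermal papilla-like and fibroblast-like cells, where libraries had as few as 2 and 0 UMIs.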

Other observations

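Genes around *Shh* were read after the data had been seen. Within 1000000 bases of *Shh*, 10 other genes had at least 50 UMIs. The hair matrix-like and Lgr5-led cells with 5 or more *Shh* UMIs (183 cells) were set against those with none (3114 cells). *9530036O11Rik*, an antisense gene at chr5:28458274-28933995 on the plus strand that overlaps *Shh*, was at 80.0 against 1.42 CPM, or 56.3-fold higher (45.6 to 69.8), with 110, 124 and 199 UMIs in the high cells of Neg, AA and AA+Ab. *Rnf32* at chr5:29195992-29228457 on the plus strand, a ring finger gene of the same region, was at 46.7 against 6.31 CPM, or 7.40-fold higher (6.34 to 8.62), from 73, 76 and 104 UMIs in the high cells. Its neighbour *Lmbr1*, at chr5:29229802-29378390 on the minus strand, was at 1.10 times (0.90 to 1.33), *Rbm33* at 0.93 times (0.82 to 1.04) and *Nom1* at 1.12 times (0.98 to 1.28), while *Insig1* was 1.32-fold higher (1.16 to 1.49). How strand entered the counting of *9530036O11Rik* is not given in the sources used here, so reads of *Shh* counted for it were not tested.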
